A study of Mus musculus with 2 samples.

Results

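The MHC class I and immunoproteasome genes were examined in tumor cells and host cells of orthotopic pancreatic cancer (PC) in mice. They are 10 of the 32285 genes in the feature tables, taken by symbol: the heavy chains H2-K1 and H2-D1, the light chain B2m, the peptide transporter and loading genes Tap1, Tap2 and Tapbp, the immunoproteasome subunits Psmb8, Psmb9 and Psmb10, and the transactivator Nlrc5. Tumors came from KPC cells, a mouse PC line, injected into the pancreas. 1 library came from a flox mouse (MCT1 fl/fl) and 1 from a mouse labelled MCT1-KO (PSCs-MCT1-/-), in which a tamoxifen-inducible Cre under the Col1a2 promoter was used to delete MCT1 (gene Slc16a1), a lactate transporter, in pancreatic stellate cells (PSCs). The KPC cells themselves were not the target of the Cre, and the Col1a2 promoter is active in fibroblasts in general. Tumor tissue was dissociated without a sort, and the mRNA 3′ ends of each cell were counted as unique molecular identifiers (UMIs). With 1 library per genotype no test between genotypes was possible, and intervals cover counting error only.

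MHC class I molecules carry peptides from inside the cell to its surface, where CD8+ T cells read them. Proteasomes cut the peptides, the TAP transporter moves them into the endoplasmic reticulum, and tapasin (Tapbp) helps to load them onto the heavy chain and B2m. Interferon-gamma raises most genes of the pathway and exchanges the constitutive catalytic subunits of the proteasome for Psmb8, Psmb9 and Psmb10, while Nlrc5 acts on the class I promoters. Loss of this pathway in cancer cells is a known route of escape from T cells.

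In the GRCm38 annotation 7 of the 10 genes lie on chromosome 17, within the mouse MHC: H2-K1 at chr17:33996017-34000347 (minus strand), Tapbp at chr17:33915899-33929292, Psmb9 at chr17:34181987-34187764 (minus), Tap1 at chr17:34187553-34197225, Psmb8 at chr17:34197721-34201454, Tap2 at chr17:34203527-34216321 and H2-D1 at chr17:35262730-35267499. Psmb9 and Tap1 start from opposite strands and overlap at their starts. B2m lies at chr2:122147686-122153083, Psmb10 at chr8:105935735-105938444 (minus) and Nlrc5 at chr8:94434356-94527272. The build that the count files used was not given in a usable form, so these positions are from the annotation and not from the files. Class I genes resemble each other, and of the 90-base windows in the last 500 bases of annotated transcripts, 2 of 1323 in H2-K1 also occurred in other class I genes and 0 in the other 9 members.

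Promoter sequence is shown for H2-K1, H2-D1, B2m, Tap1 and Psmb9, because the same short motifs recur in it. All 10 members were higher along the interferon gradient described further on, so that gradient does not set these members apart. The sequences are from RefSeq on GRCm38.p6, whose promoter table held 8 of the 10 members. Capitals mark matches, on either strand, to GGGA and CC with 4 bases of any kind between them (an NF-kB type motif), to GAANNGAAA or the longer GAAA, 2 bases of any kind and GAAA (interferon type), to TGACG (as in the X2 box) and to CCAAT (as in the Y box). Matches may overlap, and a match is a description and not a site of binding.
H2-K1, chr17:34000348-34000597, minus strand, the 250 bases before the start: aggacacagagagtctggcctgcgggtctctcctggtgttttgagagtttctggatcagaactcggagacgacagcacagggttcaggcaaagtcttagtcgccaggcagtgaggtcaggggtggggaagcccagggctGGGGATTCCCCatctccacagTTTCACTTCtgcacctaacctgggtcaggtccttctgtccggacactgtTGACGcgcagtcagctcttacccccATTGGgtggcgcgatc
B2m, chr2:122147437-122147685, plus strand: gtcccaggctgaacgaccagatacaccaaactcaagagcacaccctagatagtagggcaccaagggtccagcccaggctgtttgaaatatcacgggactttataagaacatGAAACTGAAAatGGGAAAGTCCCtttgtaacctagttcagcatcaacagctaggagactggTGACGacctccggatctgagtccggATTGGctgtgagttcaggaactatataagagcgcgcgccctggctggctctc
H2-D1, chr17:35262923-35262952, plus strand, inside the annotated gene, NF-kB type to interferon type: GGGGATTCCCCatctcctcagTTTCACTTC
H2-D1, chr17:35262993-35263022, plus strand, inside the annotated gene, TGACG to CCAAT: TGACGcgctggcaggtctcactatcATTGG
Psmb9 and Tap1, chr17:34187458-34187487, plus strand, TGACG, before the start of Tap1 and inside the annotated Psmb9 gene: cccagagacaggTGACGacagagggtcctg
Psmb9 and Tap1, chr17:34187331-34187360, plus strand, CCAAT, also before the start of Tap1 and inside the annotated Psmb9 gene: tttCCAATcagcggctgcgcgcggtgcagg
The first H2-D1 stretch differed from that of H2-K1 at 1 of 30 bases, and the second at 7 of 30. TGACG and CCAAT occurred together in the windows of 5 of the 8 members (H2-K1, H2-D1, B2m, Tap1 and Psmb9) and in 6.12% of 32851 promoters of the same length. Here and below a member counted if any of its promoters matched, while the percentages are shares of single promoters, so the 2 are not like for like. Tap1 and Psmb9 share the stretch that holds both motifs, so it counts for each of them. Singly, TGACG was in 17.8% of promoters and in those 5 members, and CCAAT was in 33.8% and in the same 5 members and Tapbp. The NF-kB type motif was in 17.6% of promoters and in H2-K1, H2-D1 and B2m. GAANNGAAA was in 6.31% of promoters and in H2-K1 and H2-D1, and the longer interferon type motif was in 2.98% and in B2m. The windows of Psmb8 and Psmb10, which are not shown, held none of these motifs.

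The flox library gave 8739 barcodes and the other 11689 after filtering, with median UMIs of 4069 and 3706 per barcode, and 59 barcodes occurred in both. Fixed marker genes, none of them a member, placed 65.5% and 68.3% of the barcodes in a class. 8 classes with at least 50 cells in each library were compared. The tumor-like class held 2120 and 3908 cells, the macrophage-like class 1780 and 1947, and the smallest, B/plasma-like in the flox library, 57. In PSC/fibroblast-like cells Slc16a1 was at 34.8 UMIs per 1000000 UMIs (CPM, 147 UMIs) for flox and at 42.0 CPM (185 UMIs) for MCT1-KO. The knockout label thus did not come with less Slc16a1 in this class, so the genotype is used below as a label only. The paper, in contrast, reports less MCT1 in PSCs of the knockout, from its single-cell data and from protein and RNA of primary PSCs. In the class used here 67.5% and 51.1% of the cells carried markers of another class. Tumor-like cells had 35.6 and 46.1 CPM of Slc16a1. The part of this mixture in the Slc16a1 values was not tested. The tumor-like class needed at least 2 of 9 keratin and related markers, with no minimum over free RNA (barcodes with 10 to 100 UMIs). Its barcodes met no other class and held no UMI of the pan-immune gene Ptprc. Their macrophage, neutrophil and T/NK marker shares each lay below those of free RNA. No such cap was set for host classes, and its part in the differences was not tested. The leading genes of the tumor-like class were Cp, Hbegf, Il11, Fst and Cxcl5. Of its 9 tumor markers, its top 10 genes held only Krt18 in the flox library and none in the other. Its own tumor markers summed to 1160 and 1361 CPM and its PSC/fibroblast markers to 1615 and 1178 CPM, against 17948 and 15115 CPM in the PSC/fibroblast-like class, and 57.5% and 31.3% of its cells carried markers of a second class. Free RNA, estimated from acinar markers, made up 16.4% and 5.94% of UMIs in tumor-like cells and up to 53.0% in neutrophil-like cells of the flox library. The part of these mixtures in the results was tested only where stated.

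To ask whether tumor cells carried less of the class I pathway than host cells, the tumor-like class was set against the mean of the 7 host classes. Of the 10 members, 6 were lower in tumor-like cells and none was higher, against a background of 20.3% of all 12052 tested genes lower and 25.4% higher. The median of the members was -0.41 on the log2 scale and that of all genes 0.02. The lower genes were Psmb9, Tap1, Tap2, Psmb8, Nlrc5 and B2m, while H2-K1, H2-D1, Tapbp and Psmb10 did not pass the test (edgeR's quasi-likelihood test on sums per class and library, Benjamini-Hochberg adjusted). CPM values below are not corrected for composition, while the log2 differences are. With free RNA subtracted, 3 of the 6 calls (Tap1, Tap2 and Psmb9) were kept, while the share of all genes called lower fell to 7.87%. The lost calls were then at -0.28 ± 0.52 for B2m, -0.56 ± 0.41 for Psmb8 and -0.43 ± 0.26 for Nlrc5, with wider errors than before. Tap1, Tap2 and Psmb9 were also the 3 members called under each of the 12 tested alternatives.

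**Figure D1:**
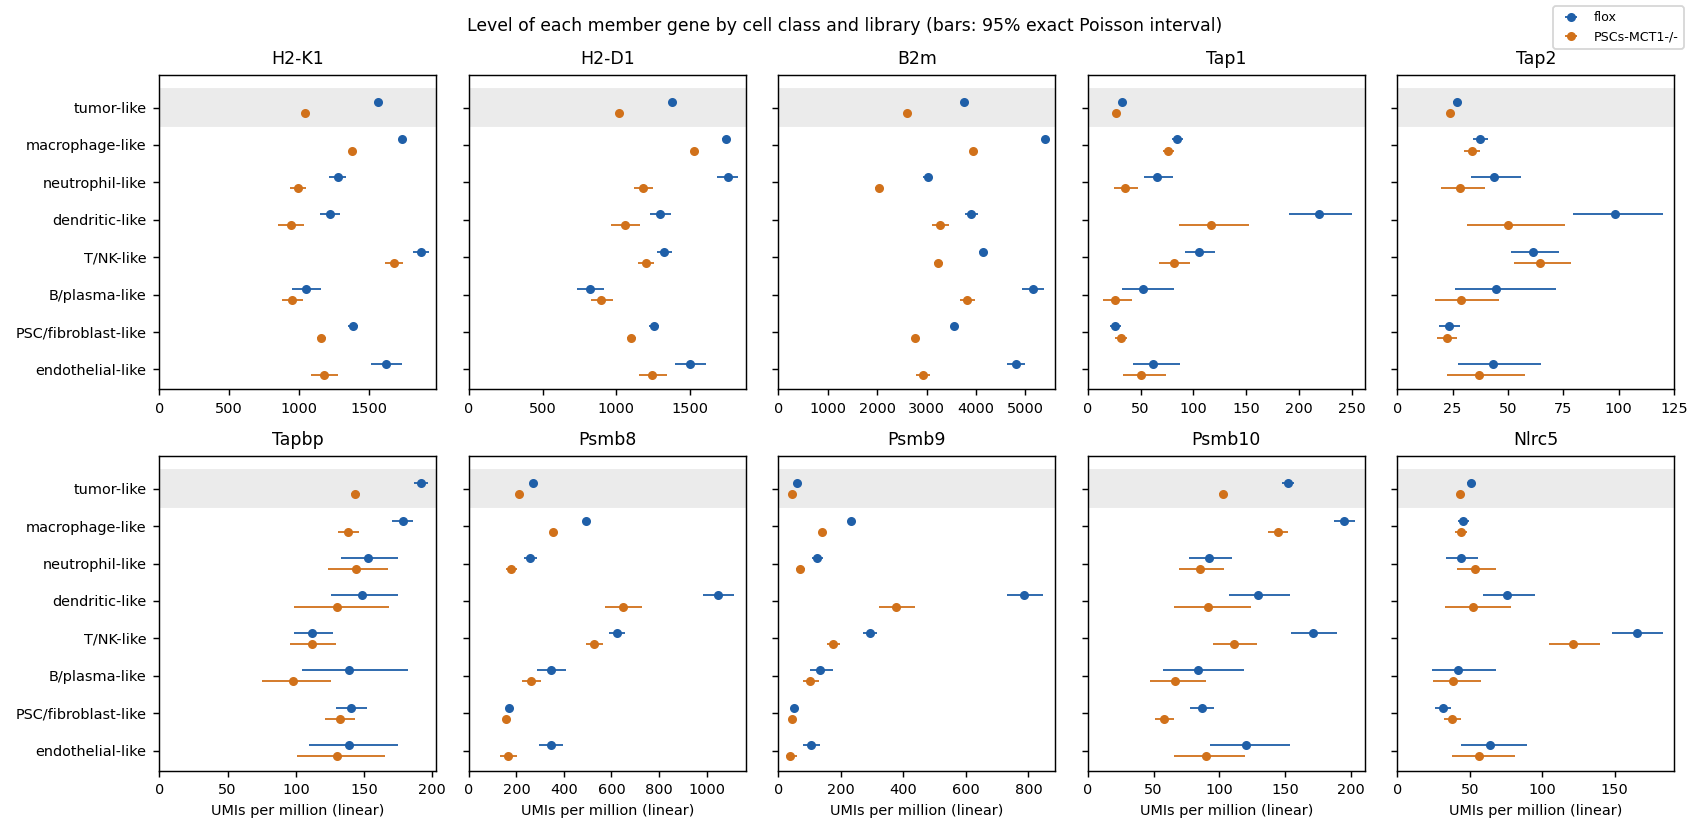
Level of each member (CPM, linear axis) in the 8 cell classes, tumor-like shaded, with 1 point per library (flox blue, PSCs-MCT1-/- orange) and 95% exact Poisson intervals. Psmb9 and Tap1 were highest in dendritic-like cells and lowest in tumor-like and PSC/fibroblast-like cells in mean level. Relative to their levels, H2-K1, H2-D1, B2m and Tapbp spanned narrower ranges than Psmb9 and Tap1.

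Neither heavy chain, the part of the molecule that holds the peptide, passed the test against the host mean. H2-K1 was at 1567 CPM in tumor-like cells of the flox library and 1042 CPM in the other. In the host classes H2-K1 ranged from 1054 CPM (B/plasma-like) to 1874 CPM (T/NK-like) in the flox library and from 942 CPM (dendritic-like) to 1684 CPM (T/NK-like) in the other. Tumor-like cells took place 4 of the 8 classes by mean level, and the lower library of each class did not lie above the higher library of the next class in this order. The log2 difference of H2-K1 from the host mean was -0.20 ± 0.11 (SE, adjusted p = 0.171). H2-D1 was at 1377 and 1015 CPM in tumor-like cells, place 5 of 8, with a difference of -0.27 ± 0.13 (adjusted p = 0.0911). H2-D1 was called lower in 3 of the 12 alternatives (lowest adjusted p = 0.0168) and H2-K1 in 1 (0.0127, DESeq2's Wald test). Against single classes, H2-K1 was lower than in macrophage-like cells (-0.61 ± 0.15) and T/NK-like cells (-0.52 ± 0.15), and H2-D1 lower than in macrophage-like cells (-0.80 ± 0.16) and neutrophil-like cells (-0.56 ± 0.16). With free RNA subtracted, these calls against macrophage-like and neutrophil-like cells were lost.

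B2m, the light chain that every class I heavy chain needs to reach the surface, was at 3763 CPM in tumor-like cells of the flox library and 2603 CPM in the other. The host classes ran from 3027 CPM (neutrophil-like) to 5394 CPM (macrophage-like) in the flox library and from 2035 to 3939 CPM, in the same classes, in the other. B2m was lower in tumor-like cells, with a log2 difference from the host mean of -0.39 ± 0.11 (adjusted p = 0.00743), and the macrophage-like and B/plasma-like classes showed the largest differences, -0.89 ± 0.14 and -1.04 ± 0.14. Neutrophil-like cells had fewer CPM of B2m than tumor-like cells in both libraries, with a difference of 0.07 ± 0.14 after scaling. The call for B2m was lost with free RNA subtracted, without the library term or without composition scaling; the last moved the median of all genes from 0.02 to 0.20.

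The transporter subunits were lower in tumor-like cells. Tap1 was at 32.7 and 26.6 CPM there, below 6 of the 7 host classes in the flox library, which reached 219 CPM in dendritic-like cells. In both libraries 5 of 7 host classes lay above tumor-like cells. B/plasma-like cells had 52.6 and 25.8 CPM of Tap1, and PSC/fibroblast-like cells 26.1 and 31.1 CPM. The log2 difference of Tap1 was -1.27 ± 0.20 (adjusted p = 6.14e-05). Tap2, its partner in the transporter, was at 26.9 and 23.7 CPM and differed by -0.89 ± 0.16 (adjusted p = 0.000288), with 6 of 7 host classes above tumor-like cells in both libraries. The remaining host class, PSC/fibroblast-like, had 23.2 and 22.3 CPM of Tap2. Tapbp, which bridges the transporter and the empty class I molecule, was at 192 and 144 CPM in tumor-like cells, the highest mean of the 8 classes, and its difference from the host mean was 0.12 ± 0.12 (adjusted p = 0.484). Tapbp was the only one of these 3 genes not lower. Of the 7 host classes, 4 lay in both libraries below the lower library of tumor-like cells, and 0 lay above the higher one. At no step of the order of Tapbp did the lower library of a class lie above the higher library of the next.

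Of the immunoproteasome subunits, Psmb9 and Psmb8 were lower in tumor-like cells and Psmb10 did not pass the test. Psmb9 showed the largest difference of the 10 members: 58.7 and 44.0 CPM in tumor-like cells, 233 and 139 CPM in macrophage-like cells, 292 and 176 CPM in T/NK-like cells, and 788 and 376 CPM in dendritic-like cells. It differed from the host mean by -1.58 ± 0.18 (adjusted p = 2.83e-06). Psmb8 was at 270 and 212 CPM in tumor-like cells against 1050 and 647 CPM in dendritic-like cells, with a difference from the host mean of -0.69 ± 0.16 (adjusted p = 0.00187). Psmb10 was at 152 and 103 CPM in tumor-like cells, place 3 of the 8 classes, and its difference was 0.09 ± 0.11 (adjusted p = 0.592). The difference between subunits was not itself tested.

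Nlrc5, the transactivator that drives class I genes, was at 50.9 and 43.6 CPM in tumor-like cells and at 165 and 121 CPM in T/NK-like cells, the highest class in both libraries. Its difference from the host mean was -0.44 ± 0.14 (adjusted p = 0.0198) and was called in 4 of the 12 alternatives. Macrophage-like cells had 45.6 and 44.0 CPM of Nlrc5, with a difference of -0.26 ± 0.18 (adjusted p = 0.225).

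**Figure D2:**
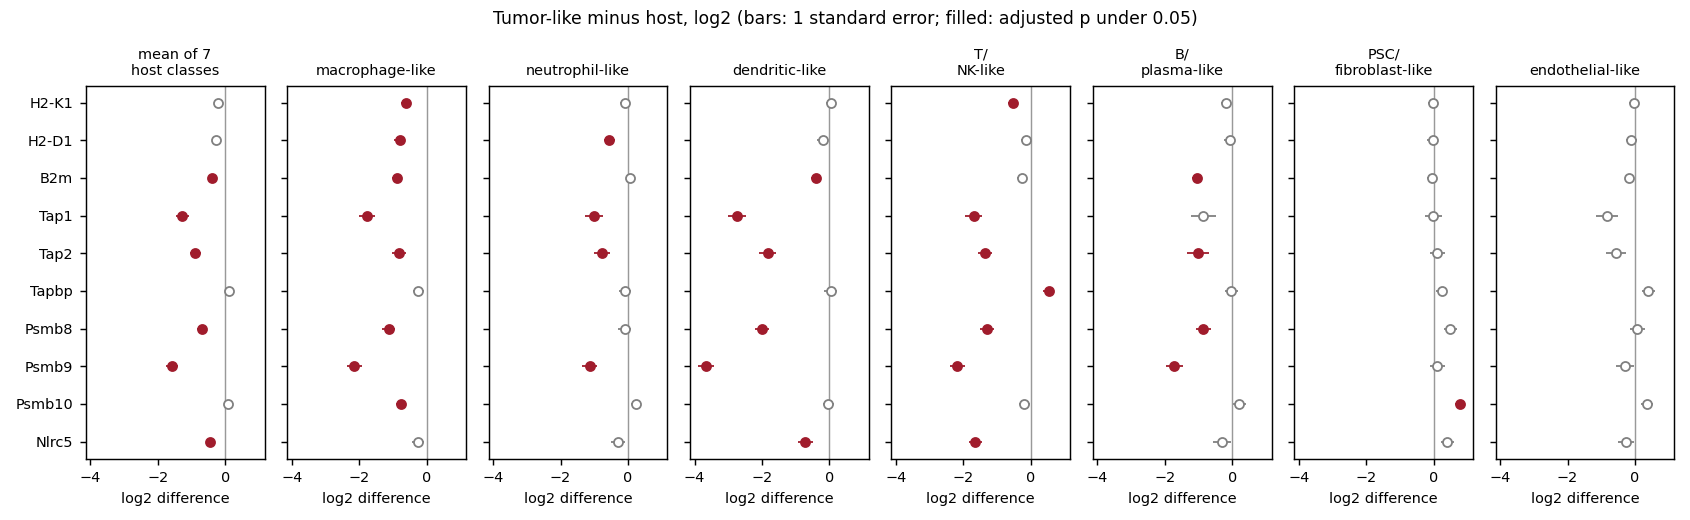
Log2 difference of tumor-like cells from the mean of the 7 host classes and from each of them (columns) for the 10 members; bars are 1 standard error and filled points have an adjusted p under 0.05. Of the 10 members, 8 were lower against macrophage-like cells, 6 against dendritic-like cells and 6 against T/NK-like cells (2, 4 and 4 with free RNA subtracted), with the longest distances from 0 for Psmb9 and Tap1 against dendritic-like cells.

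Set against each host class in turn, 28 of the 70 differences were lower in tumor-like cells and 2 were higher. Against macrophage-like cells 8 of 10 members were lower (background 31.9%; 25.2% higher), all but Tapbp and Nlrc5, but with free RNA subtracted 2 were (Tap1 and Psmb9; background 18.2%). Against dendritic-like cells 6 were lower (background 21%; 18.6% higher), led by Psmb9 at -3.66 ± 0.24 (adjusted p = 3.05e-09), Tap1 at -2.73 ± 0.26 and Psmb8 at -2.01 ± 0.21. Against T/NK-like cells 6 were lower (background 27.2%), among them Psmb9 at -2.19 ± 0.22, Tap1 at -1.69 ± 0.25 and Nlrc5 at -1.64 ± 0.18, and Tapbp was higher at 0.53 ± 0.17 (background 23.8% higher). Against neutrophil-like and B/plasma-like cells 4 members each were lower (backgrounds 24.7% and 16.2%; 24.2% and 15.3% higher). Over the 7 classes 21.1% of the differences of all genes were lower. With free RNA subtracted the count of 28 fell to 11 and the share of all genes to 12.3%. The counts against neutrophil-like and B/plasma-like cells were 0 and 1 with free RNA subtracted (background 16.5% and 9.12%) and 5 and 1 with likely doublets left out (27.2% and 12.4%). Without composition scaling 2 members were lower and 1 higher against neutrophil-like cells (background 20.2% and 33.1%), and 2 lower and 2 higher against B/plasma-like cells (11.2% and 31.2%). Of the members lower against dendritic-like and T/NK-like cells, 4 each stayed lower with free RNA subtracted (background 12.3% and 14.8%).

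Against the stromal classes no member was lower in tumor-like cells (backgrounds 13.7% for PSC/fibroblast-like and 13% for endothelial-like; 4.8% and 10.5% higher). The 10 differences from PSC/fibroblast-like cells lay between -0.04 (B2m) and 0.78 (Psmb10), and Psmb10 was higher in tumor-like cells (0.78 ± 0.15, adjusted p = 0.00121; background 4.8% higher). Psmb10 was at 86.7 and 58.2 CPM in PSC/fibroblast-like cells, below the 152 and 103 CPM of tumor-like cells within each library. The call was lost with free RNA subtracted (1.23 ± 0.97, adjusted p = 0.872; background 0.078% higher) and without the library term (0.78 ± 0.32, adjusted p = 0.164; background 1.1% higher). From endothelial-like cells the difference was -0.82 ± 0.32 for Tap1 (adjusted p = 0.0766) and 0.40 ± 0.19 for Tapbp (adjusted p = 0.143). Clusters were built from variable genes and named by the class that most of their classed cells held. Their names thus rest on the marker rule. They shared 59.4% and 68.8% of the PSC/fibroblast-like cells. With them no member was lower than in PSC/fibroblast-like cells and 3 were higher (background 23.5% lower and 17.6% higher). Against endothelial-like cells 1 was lower and 1 higher (16.3% and 15.4%). With likely doublets left out 4 members were higher than in PSC/fibroblast-like cells (background 14.8%) and 1 was lower than in endothelial-like cells (14.2%). Also 1 member was lower than in endothelial-like cells with DESeq2 size factors (14.8%) and without composition scaling (14%). The same count came without the filter on low counts (7.46%) and with DESeq2's Wald test (16.9%).

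The other genes of the pathway, a list of 23, had 8 lower and 2 higher in tumor-like cells against the host mean (background 20.3% and 25.4%). With free RNA subtracted 3 were lower (H2-Q6, H2-Q7 and Irf2) and 0 higher (7.87% and 11.9%). None of the 3 constitutive catalytic subunits passed the test (Psmb5 0.22 ± 0.12, Psmb6 0.20 ± 0.16, Psmb7 0.37 ± 0.16), and none of the 3 genes of the proteasome activator did. Of the 4 peptide loading genes, the chaperone Canx was higher (0.32 ± 0.12, adjusted p = 0.0345). Of the 7 regulators, Irf2 (-1.12 ± 0.18) and the class II transactivator Ciita (-0.69 ± 0.25) were lower, and Irf1, an interferon-induced factor that binds class I promoters, was higher (0.80 ± 0.17, adjusted p = 0.000901).

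All 6 non-classical class I genes were lower (2 with free RNA subtracted, H2-Q6 and H2-Q7), and H2-Q7 and H2-Q6 were lower by more than any member. H2-Q7 was at 5.80 CPM in tumor-like cells of the flox library (169 UMIs in 2120 cells) and 2.42 CPM in the other, against 91.4 and 108 CPM in PSC/fibroblast-like cells, 186 and 73.2 CPM in macrophage-like cells and 646 and 440 CPM in T/NK-like cells. Its log2 difference from the host mean was -5.97 ± 0.36 (adjusted p = 3.22e-09). H2-Q6 was at 2.37 and 1.00 CPM in tumor-like cells and its lowest host level in the flox library was 31.3 CPM, with a difference of -5.76 ± 0.31 (adjusted p = 1.87e-09). For both genes every host class lay above tumor-like cells in both libraries, as for 1.72% of all genes with at least 50 UMIs, while for 6.35% every host class lay below. Of the 3′ windows of H2-Q6, 26.9% also occurred in other genes, H2-Q7 and H2-D1 among them, so the split of counts between these genes is uncertain. The other 4 (H2-T23, H2-T22, H2-Q4 and H2-M3) lay between -0.75 and -0.69.

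Each inducible subunit takes the place of a constitutive one, so the share of UMIs from the inducible gene of each pair was taken per class; a share depends on how well each of the genes is captured and is compared between classes only. Psmb8 made up 57.2% (95% Clopper-Pearson interval 56.4 to 58.1) of the UMIs of Psmb8 and Psmb5 in tumor-like cells of the flox library and 49.0% (48.4 to 49.7) in the other. In dendritic-like cells the share was 86.2% and 82.3%, and in PSC/fibroblast-like cells 50.5% and 50.3%. Psmb9 made up 19.4% and 14.2% with Psmb6 in tumor-like cells, 20.2% and 18.9% in PSC/fibroblast-like cells, 51.4% and 41.3% in macrophage-like cells and 77.2% and 67.3% in dendritic-like cells. Psmb10 made up 47.0% and 34.3% with Psmb7 in tumor-like cells and 59.5% and 53.9% in macrophage-like cells, while dendritic-like cells, at 34.7% and 40.0%, were not above tumor-like cells in the flox library. The interval lay above that of tumor-like cells in both libraries in 4 of 7 host classes for Psmb8, 5 for Psmb9 and 2 for Psmb10. It lay below in both libraries in none. In the flox library alone it lay below for Psmb10 in dendritic-like cells (29.8 to 39.9, against 46.0 to 48.0). The same held there for Psmb8 in PSC/fibroblast-like cells (47.9 to 53.1, against 56.4 to 58.1). A share also moves with its constitutive gene. In both libraries 7 of 7 host classes had fewer CPM of Psmb5 than tumor-like cells, and 6 each of Psmb6 and Psmb7. In T/NK-like cells Psmb10 was at 171 and 111 CPM, against 152 and 103 CPM in tumor-like cells. Psmb7 was at 138 and 136 CPM there, against 171 and 196 CPM.

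**Figure D3:**
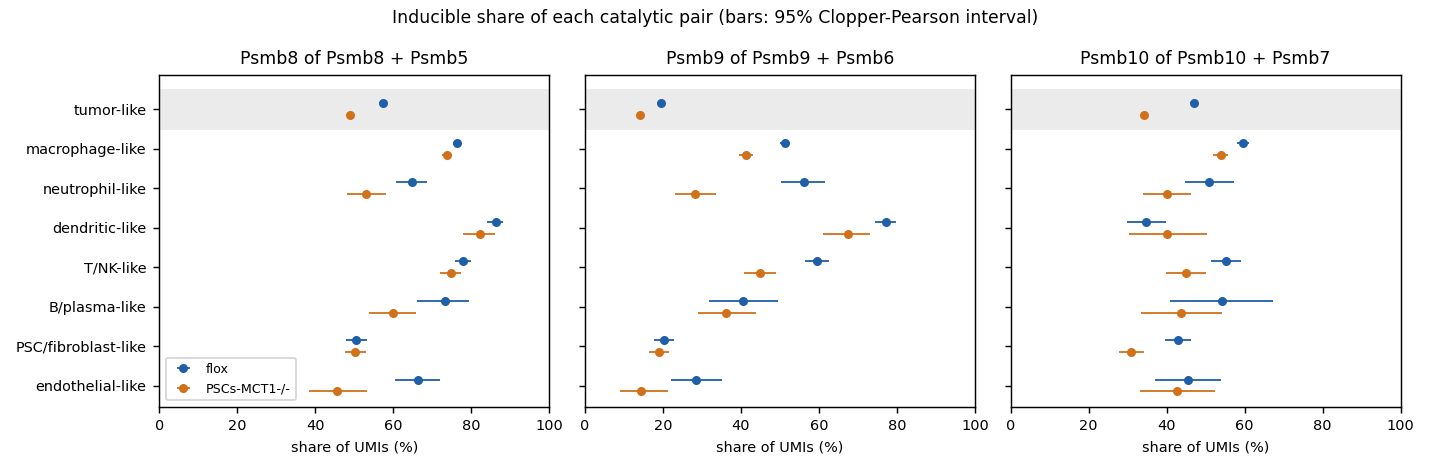
Share of UMIs (%) from the inducible subunit of each catalytic pair in the 8 classes, with 1 point per library and 95% Clopper-Pearson intervals. For Psmb9, tumor-like cells (19.4% and 14.2%) lie near PSC/fibroblast-like cells and below the 5 immune classes.

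The share of cells with a UMI was compared after thinning each cell to 1000 UMIs, which left out 83 and 186 shallower tumor-like cells. B2m was then seen in 93.7% of tumor-like cells in the flox library, 86.5% in the other (98.9% and 97.1% unthinned), and H2-K1 or H2-D1 in 87.9% and 80.2%. In T/NK-like cells the share with H2-K1 or H2-D1 was 93.5% and 95%. Psmb9 was seen in 5.84% and 4.38% of thinned tumor-like cells (44.2% and 35.0% unthinned) against 26.0% and 14.5% of T/NK-like cells. Tap1 was seen in 3.19% and 2.96% against 9.48% and 9.52%. Of the 70 pairs of a member and a host class, 17 had the interval of the host class above that of tumor-like cells in both libraries, against 6.23% of the pairs of all genes. No class here is known to lack class I genes, so the share that free RNA alone would give could not be read from a negative class. At this depth a cell without a UMI of a member is not a cell without its expression.

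To describe how the members varied among tumor cells, the tumor-like cells of each library were split into 3 equal parts by their share of UMIs from 15 interferon-induced genes, none of them a member. These genes rose from 424 to 4611 CPM between the lowest and the highest part in the flox library and from 141 to 2686 CPM in the other, as the split fixes. All 10 members were higher in the highest part than in the lowest in both libraries, as were 23% of all genes. Tap1 went from 19.6 through 25.1 to 52.2 CPM in the flox library and from 13.7 through 18.8 to 46.8 CPM in the other, ratios of 2.67 (95% interval 2.24 to 3.18) and 3.43 (lower bound 2.94). Psmb9 went from 41.7 to 76.6 CPM and from 26.4 to 64.8 CPM (ratios 1.84 and 2.45), and Psmb10 from 113 to 194 CPM and from 66.8 to 151 CPM (1.71 and 2.26). Nlrc5 had ratios of 2.05 and 1.55 and Tap2 of 1.56 and 1.88. These 5 members were past 1.5-fold in both libraries, against 3.4% and 3.7% of all genes in each library and 1.83% in both. With 2 equal parts in place of 3, only Tap1 was (1.99 and 2.60), against 2.45% and 2.79% of all genes in each library.

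The other 5 members had smaller ratios along the same gradient in at least 1 library. The ratio was 1.36 and 1.56 for H2-K1, 1.24 and 1.42 for H2-D1 and 1.32 and 1.47 for B2m. Tapbp had 1.43 and 1.57 and Psmb8 1.47 and 1.85. The constitutive subunits had ratios between 0.842 (Psmb5, flox) and 1.02 (Psmb6, PSCs-MCT1-/-), below the interval of each of the 10 members. Among the non-classical genes, H2-T23 had 1.68 and 1.60 and H2-Q4 1.53 and 1.72, while H2-Q7 had 1.09 (0.743 to 1.62) and 1.66 (1.01 to 2.79) on few UMIs. Macrophage markers in these cells were at 353, 373 and 375 CPM from the lowest to the highest part in the flox library and at 134, 148 and 167 CPM in the other, and tumor markers at 1271, 1152 and 1068 CPM and at 1424, 1323 and 1345 CPM. T/NK markers were at 12.5, 14.1 and 12.5 CPM and at 4.17, 5.62 and 5.14 CPM. The class rule kept only barcodes whose macrophage, neutrophil and T/NK marker shares lay below those of free RNA. These immune marker levels were thus capped before the split, so their course along the parts is no check on immune RNA.

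**Figure D4:**
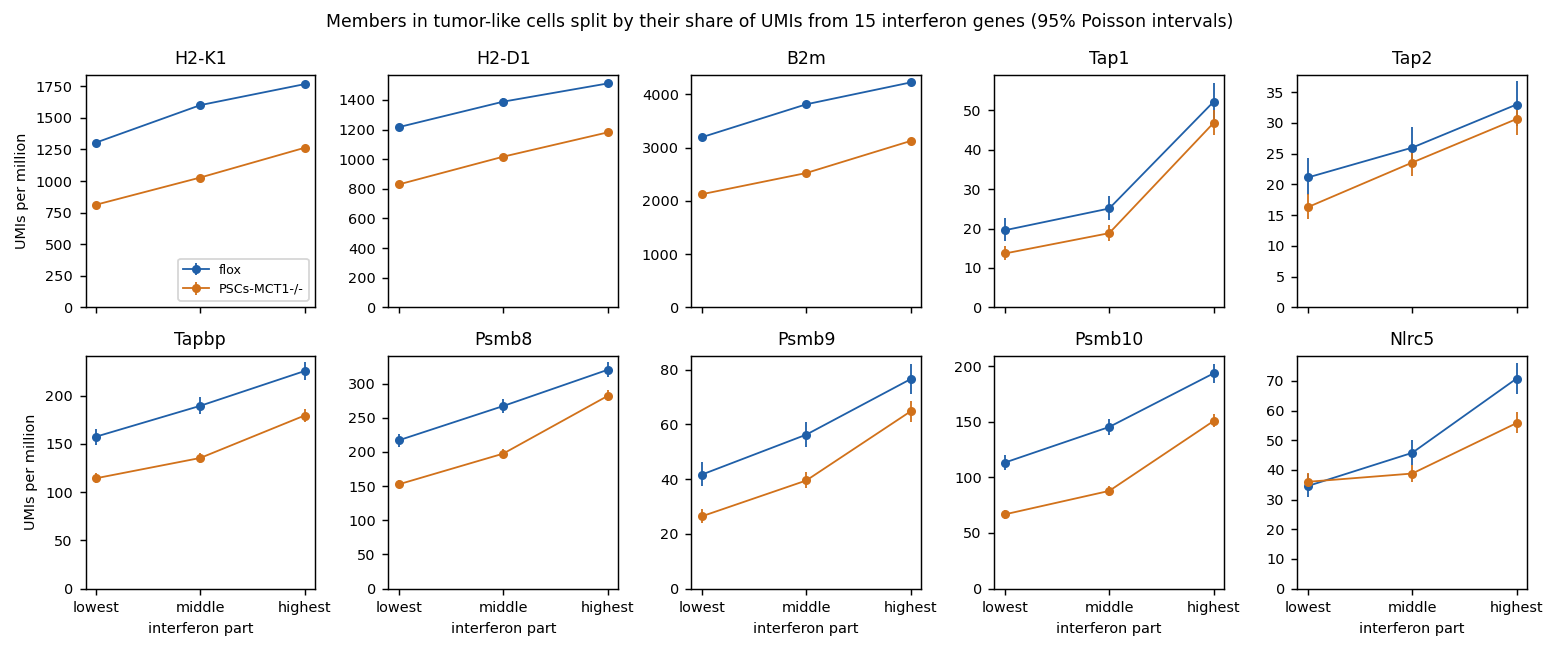
Level of each member (CPM, axis from 0) in tumor-like cells split into 3 equal parts by their share of UMIs from 15 interferon genes, with 1 line per library and 95% exact Poisson intervals. All 10 members are higher in the highest part than in the lowest in both libraries, with Tap1 the steepest (2.67 and 3.43).

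The libraries were then compared within each class. In tumor-like cells all 10 members were lower in the library labelled PSCs-MCT1-/- than in the flox library, with intervals below 1: from a ratio of 0.665 (95% exact conditional interval 0.657 to 0.673) for H2-K1 to 0.883 (0.806 to 0.967) for Tap2. Psmb10 had 0.674, B2m 0.692, H2-D1 0.737, Psmb9 and Tapbp 0.749, Psmb8 0.786, Tap1 0.815 and Nlrc5 0.857. Of all genes in tumor-like cells, 47.2% had a ratio below 1, 25% an interval below 1 and 29.6% an interval above 1. Only H2-K1 passed 1.5-fold, against 7.78% of all genes lower by that fold and 6.1% higher, while the median ratio was 0.749 over the members and 1.01 over all genes. The spread between mice of 1 genotype is not known here, so a ratio of this size is a difference between 2 libraries.

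The tumor-like cells of the libraries lay largely in different clusters, built without the members. The libraries were clustered together with no correction between them, and the part of a library effect in this split was not tested. 1 cluster held 48.3% of the tumor-like cells of the flox library and 2.35% of those of the other, another held 1.98% and 33.4%, and another 13.4% and 32.1%. Macrophage-like cells were split in the same way, with 75.6% and 1.69% in 1 cluster and 7.70% and 87.0% in another. Of the PSC/fibroblast-like cells, 59.4% and 68.8% shared 1 cluster, while 30.0% and 1.68% lay in the first of the tumor-like clusters above and 0% and 16.3% in the second, and 67.5% and 51.1% carried markers of another class. In 5 clusters with at least 50 tumor-like cells in each library, a division added after the data were seen, the direction was not shared by all. In 4 of them every member with at least 50 UMIs had a ratio below 1, with 6 to 8 intervals below 1 and median ratios from 0.666 to 0.771. Over all genes in the same clusters 12.2% to 13.8% had an interval below 1, and median ratios ran from 0.971 to 1.04. In the cluster with the largest number of flox cells (1025, against 92 in the other library), the intervals of H2-K1 and B2m lay below 1 and those of 5 members above, with ratios of 2.50 for Tap1, 2.02 for Nlrc5, 1.55 for Psmb9, 1.46 for Tap2 and 1.37 for Psmb8. The median ratio there was 1.23 over the members and 1.03 over all genes, of which 8.97% had an interval below 1 and 13.4% above. How far the mix of clusters sets the ratios of the whole class was not tested.

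Of 76 pairs of a member and a class with at least 50 UMIs, 71 had a ratio below 1, 50 had an interval below 1 and 0 had an interval above 1. Of all pairs of a gene and a class with that many UMIs, 47.5% had a ratio below 1, 18.3% an interval below 1 and 21.1% an interval above 1, and an interval narrows as UMIs rise. With free RNA subtracted the members' intervals numbered 42 below and 10 above, and those of all pairs were 21.1% and 26.6%. The lowest ratios were those of Psmb9 in endothelial-like cells, 0.376 (0.213 to 0.637) from 55 and 20 UMIs, Psmb8 in the same class, 0.475 (0.362 to 0.618), and Psmb9 in dendritic-like cells, 0.478 (0.401 to 0.566). At 1.5-fold, no member was higher in any class, while 1 of 10 was lower in macrophage-like cells (background 8.6%; 7.41% higher), 3 in neutrophil-like (10.7%; 18.1% higher), 4 in dendritic-like (14.2%; 12.5% higher), 2 in T/NK-like (10.4%; 8.1% higher) and 3 of 9 in endothelial-like (11.7%; 8.53% higher). None was lower in B/plasma-like (7.85%; 23.2% higher) or PSC/fibroblast-like cells (7.54%; 7.87% higher). PSC/fibroblast-like cells, the class the Cre was to act in, had the highest median ratio, 0.90 (1.00 over all genes), with 4 of 10 intervals below 1 and Tap1 and Nlrc5 both at 1.19 with intervals that included 1. In free RNA, from barcodes with 10 to 100 UMIs, the ratio was 0.608 for H2-K1, 0.621 for B2m and 0.558 for Psmb9, and 0.948 for Nlrc5, so the free RNA moved with the cells; its part in the ratios was not tested beyond its subtraction.

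**Figure D5:**
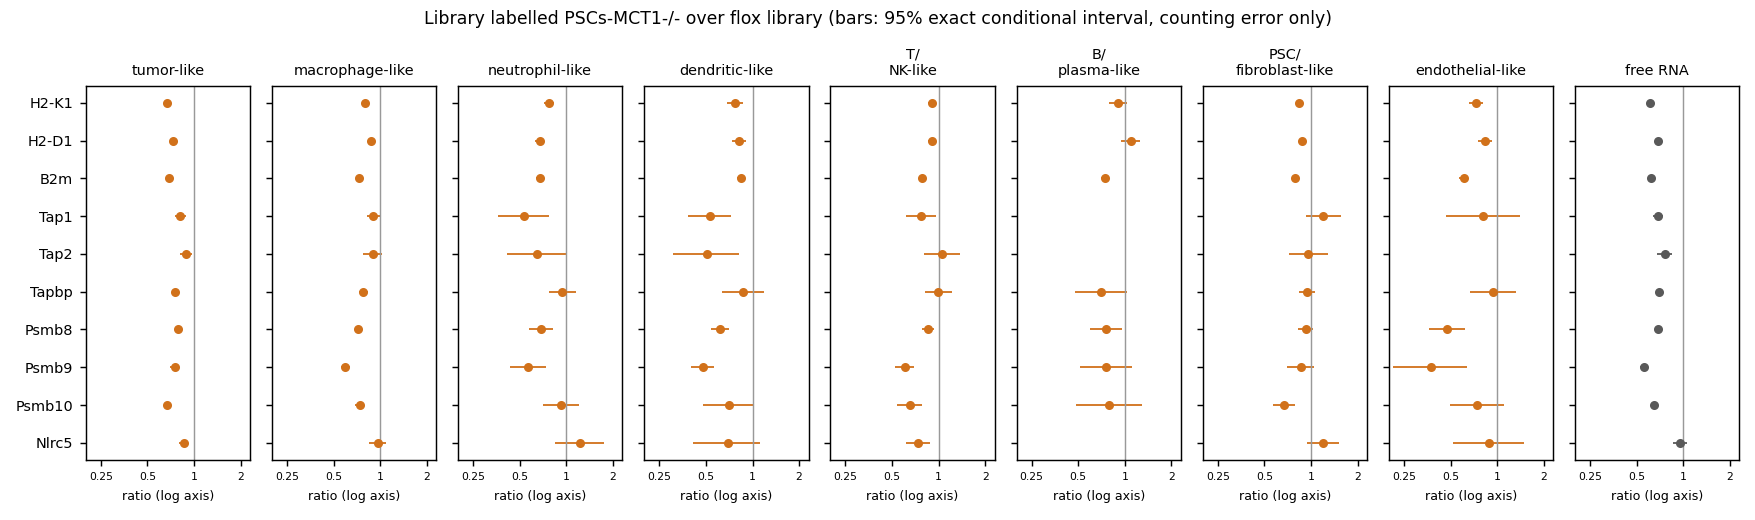
Ratio of the library labelled PSCs-MCT1-/- to the flox library (log axis) for each member in each class and in free RNA, with 95% exact conditional intervals that cover counting error only; pairs under 50 UMIs are not drawn. All 10 points of tumor-like cells lie between 0.665 and 0.883.

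Over the 16 sums of a class in a library, the members moved together to different degrees: the Pearson correlation of a member with the mean of the other 9 was 0.865 for Psmb8, 0.836 for Psmb9, 0.832 for Tap1 and 0.827 for Psmb10, and 0.424 for Tapbp. Among 14920 other genes, those most like the mean of the members were Tma7 (0.924), Hprt (0.918), Oaz1 (0.904), Imp4 (0.895) and Ube2l3 (0.893). The 16 sums share 2 libraries and their depth, so these values are descriptions.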

How the data were processed

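Single-cell 3′ libraries of 2 tumors (1 per genotype) were analysed from the deposited raw UMI counts per gene and barcode. Per the labels, the authors used a SeekOne MM kit, while the methods name 10x Genomics Chromium or SeekOne DD; Fastp and SeekOneTools followed, and the labels name the human build GRCh38 and Seurat 4.0.0, but the deposited files list mouse genes, so the build used for counting is uncertain. Barcodes with at least 500 UMIs, 200 to 5000 genes and up to 8% mitochondrial UMIs were kept. Each barcode was classed from fixed markers, with thresholds set on marker genes alone and no doublet caller; likely doublets were left out only as an alternative. The members, lists and comparisons were chosen with earlier results of these data known. The genes named were the 10 members, the 23 other pathway genes and the 5 most like genes. Slc16a1, Ifng, Ifnb1, marker genes and the leading genes of the tumor-like class are named besides.

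UMIs were summed per class and library (16 sums) and fitted with edgeR 4.0.16 (TMM, filterByExpr, quasi-likelihood F-test, terms for library and class, Benjamini-Hochberg over 12052 genes). The SE is the size of the log2 difference divided by the square root of F. The sums of the 2 libraries are the replicates, so p-values measure how class differences varied between these libraries, which also differ in genotype. Total kept UMIs were 61149689 (flox) and 81494894. Ratios have exact conditional intervals, levels exact Poisson intervals and shares Clopper-Pearson intervals, all 95%. Alternatives covered cell filters, clusters (leidenalg 0.10.2), doublets, free RNA, scaling, DESeq2 1.42.0, low-count filters, the library term, host weighting, thinning and gradient parts. The fit was tested on simulated data. Acinar-like, islet-like and duct-like cells entered no test except the alternative with 1 sum over all host cells.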

Additional observations from a re-analysis of the deposited data

How the results depend on the processing

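Of the 10 members, the number lower in tumor-like cells than in the host mean was 6, and 3 to 8 over the alternatives: it was 3 with free RNA subtracted, 3 without the library term and 8 with DESeq2's Wald test, where 7.87%, 15.9% and 30.5% of all genes were lower (20.3% in the fit reported). The 28 lower differences from single host classes became 11 with free RNA subtracted (12.3% of all genes, from 21.1%). The 5 members past 1.5-fold along the interferon gradient in both libraries became 1 with 2 equal parts in place of 3. The share of all genes past 1.5-fold went from 3.4% to 2.45% (flox) and from 3.7% to 2.79% (PSCs-MCT1-/-). Host classes with a share of cells above tumor-like cells in both libraries numbered 17 of 70 pairs after thinning and 10 unthinned, where 6.23% and 5.64% of the pairs of all genes did. 2 differences changed sign: H2-K1 was at 0.017 with free RNA subtracted, and Psmb10 at -0.12 with 1 sum over all host cells; neither was called in the fit reported. The cause of these changes was not tested. Nlrc5 lost its call under 8 of 12 alternatives, B2m under 3 and Psmb8 under 2, while Tap1 (adjusted p up to 0.0441), Tap2 (up to 0.043) and Psmb9 (up to 0.0167) were called in all 12. Within 1 library alone, with no test, Psmb9 was at -1.27 without the flox library and -1.77 without the other, and Tap1 at -1.03 and -1.37. Free RNA and the small dendritic-like, B/plasma-like and endothelial-like classes limit what the counts can show. The class differences were paired within each library through the library term of the fit. No paired analysis of the genotypes was possible because each genotype has 1 library.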

Other observations

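Ifng, the gene of interferon-gamma, was chosen after its values were seen. It was at 394 CPM (839 UMIs) in T/NK-like cells of the flox library and 103 CPM (160 UMIs) in those of the library labelled PSCs-MCT1-/-, and at most 0.748 CPM in the other 7 classes, where it had 0 to 14 UMIs. In T/NK-like cells 10.4% of all genes were lower by 1.5-fold or more. Ifnb1, the gene of interferon-beta, went the other way in macrophage-like cells, with 8.07 CPM (97 UMIs) for flox and 12.7 CPM (124 UMIs) for PSCs-MCT1-/-. Tumor-like cells held 8 and 5 UMIs of Ifnb1.

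Barcodes outside the classes compared also carried the members. Duct-like cells, 19 in the flox library, 28 in the other, had 1176 and 1100 CPM of H2-K1, 2080 and 1977 CPM of B2m, 47.8 and 54.5 CPM of Psmb9 and 139 and 195 CPM of H2-Q7. Acinar-like cells, 18 and 169, had 205 and 376 CPM of H2-K1 and 858 and 932 CPM of B2m. Barcodes in no class, 3016 and 3707, had 3817 and 2634 CPM of B2m and 122 and 69.1 CPM of Psmb9.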
